A study of Mus musculus with 12 samples.

Results

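The response to lipopolysaccharide (LPS) was measured in dendritic cells (DCs) from the spleens of miR-142 knockout (KO) mice, by setting 3 arrays of LPS-treated KO cells against 3 arrays of unstimulated KO cells. These 6 arrays were chosen by their titles from the 12 Affymetrix arrays of the series, whose other 6 hold wild-type (WT) C57BL/6 cells with and without LPS. All mice were male, of C57BL/6 background and 10 weeks old, and the DCs were isolated from individual spleens by a positive selection whose marker the labels do not name. The unstimulated KO and the LPS-treated KO groups share the genotype, background, sex, age and tissue, and differ by LPS alone in the labels. Neither the mutant allele and the tissues it affects, nor the dose, the duration or the route of LPS is stated in the labels. The cell type label is dendritic cells, although a free-text note on each sample speaks of T cells. On the 6 KO arrays the DC genes Zbtb46 (5.86 to 6.82, log2 signal), Flt3 (5.42 to 6.21) and Itgax (6.69 to 7.59) and the antigen presentation genes H2-Ab1 (8.93 to 9.36) and Cd74 (8.62 to 10.05) were brighter than the T cell genes Cd3d (3.76 to 4.16), Cd3e (3.48 to 4.50) and Cd3g (2.88 to 3.33). The subset genes Batf3 (4.02 to 4.83), Xcr1 (3.20 to 3.86) and Esam (2.60 to 3.14) lay near the level of those T cell genes, and levels of different probe sets are only a rough guide. This comparison bears on T cells alone, and markers of other cell types, some of them bright, are described below. DCs purified this way are a mixture of subsets, so that fewer cells of a type and less RNA per cell cannot be told apart.

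LPS is a cell wall component of Gram-negative bacteria that the receptor TLR4 detects together with MD-2 and CD14. Signals through the adaptor MyD88 activate NF-kB and MAP kinases and lead to inflammatory cytokines and chemokines, while signals through the adaptor TRIF lead to interferon beta and, through its receptor, to antiviral genes. In DCs this programme is accompanied by more costimulatory molecules, movement to T cell areas and a shift in metabolism towards glycolysis. miR-142 is a microRNA of blood cells, and the labels give the mice of all 6 arrays as knockouts for it. The LPS response described here is thus one of cells labelled as lacking it. The series addresses how the loss of this microRNA affects DC gene expression and activation.

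The missing regulator is shown first because it defines the cells. Its 2 mature strands are given 5′ to 3′ from RefSeq (GRCm38.p6, chr11, plus strand), with the seed, bases 2 to 8, in capitals. The hairpin gene had no probe set of its own among those analysed here, so its absence was not checked on the arrays.
miR-142a-5p: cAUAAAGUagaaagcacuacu
miR-142a-3p: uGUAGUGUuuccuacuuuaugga

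LPS array 2 stood apart from the other arrays. Its correlations with the other 11 over 17097 genes ran from 0.933 to 0.960, while the lowest correlation among the other 11 was 0.959. On the control probe sets, a sign of RNA quality, its signal at the 3′ end of Gapdh exceeded that of the middle by 3.04 log2 units (1.53 to 1.86 on the other 11 arrays), and for Actb by 0.94 (0.02 to 0.16). The array was kept, and values without it are given for genes named here whose call it ends or whose difference it moves by over 1.5 times. Arrays of one number in both groups resembled each other, so fits with the array number as a block are given as well. In fits with the block and no LPS array 2, unstimulated array 2 had no partner left and did not affect the difference. Such KO values therefore rest on the other array numbers alone.

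More genes passed as higher than as lower after LPS in KO cells. Of 17097 genes, 61 were higher (0.357% of those tested) and 6 were lower (0.0351%) at a limma adjusted p under 0.05, and 43 of the rises (0.252% of all genes) were of at least 1 log2 unit, a 2-fold change. At an unadjusted limma p under 0.05 there were 1619 genes (9.47%), 720 higher (4.21%) and 899 lower (5.26%). Whatever their p, 82 genes (0.480%) differed by 1 or more and 8 (0.0468%) by −1 or less. All 61 rises and all 6 falls had groups that did not overlap and differences of the same sign for all 3 array numbers. Over all genes, the 3 LPS arrays lay above the 3 unstimulated arrays for 5.75% and below them for 7.71%, and the median log2 difference was −0.02. Without LPS array 2, 91 genes were higher (0.532%) and 7 lower (0.0409%), and 56 of the 61 rises and 3 of the 6 falls passed again. With array numbers as a block 123 genes were higher (0.719%) and 25 lower (0.146%), among them 60 of the 61 and 5 of the 6. The calls lost with the block were of Ell2 (adjusted p = 0.0549), an elongation factor gene, and Pltp (adjusted p = 0.0509). When the 6 KO arrays were fitted alone, with fewer degrees of freedom, 13 of the 61 rises and 0 of the 6 falls passed. Counts of higher genes were 39 without unstimulated array 1 and 35 without unstimulated array 2, and 30 rises and 1 fall (Ssna1) passed without any 1 of the 12 arrays. Those 30 include Il6, Il12b, Tnf, Il10, Il1a, Cxcl1, Cxcl10, Ifit1, Oasl1, Ifih1, Tnfsf9, Ptgs2, Nfkbiz, Tnfaip3 and Nlrp3. Other calls depended on single arrays: among 12 arrays left out in turn the call was lost 11 times for Nfkbia, Zfp36l1 and Map3k20, 10 times for Cxcl2, S1pr1, Nbn and Tnfrsf13c, 9 for Ccl22, Tnip1, Pip5k1c and Gimap9, 8 for Ifnb1, Ell2 and Tbc1d1 and 7 for Myc and Fam133b. The call was lost 6 times for Sowahc, 5 for Lif and Pltp, 4 for Id3, Mir17hg, Procr and Osgin2, 3 for Cdc42ep3 and Ppp2r3c, 2 for Ifit2, Cflar, Gem, Helz2, Jdp2 and Mrpl39, and 1 time for Ccl4, Cd40, Marcksl1, Pde4b and Zc3h12a. In these 36 genes the highest adjusted p ran from 0.0522 (Marcksl1 and Pde4b, without unstimulated array 2) to 0.227 (Tnfrsf13c, without the same array). Errors after ± are moderated SEs of the log2 difference from limma, with 3 arrays per group. They come from the fit without a block, also where a p from the fit with the block stands beside them.

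**Figure D1:**
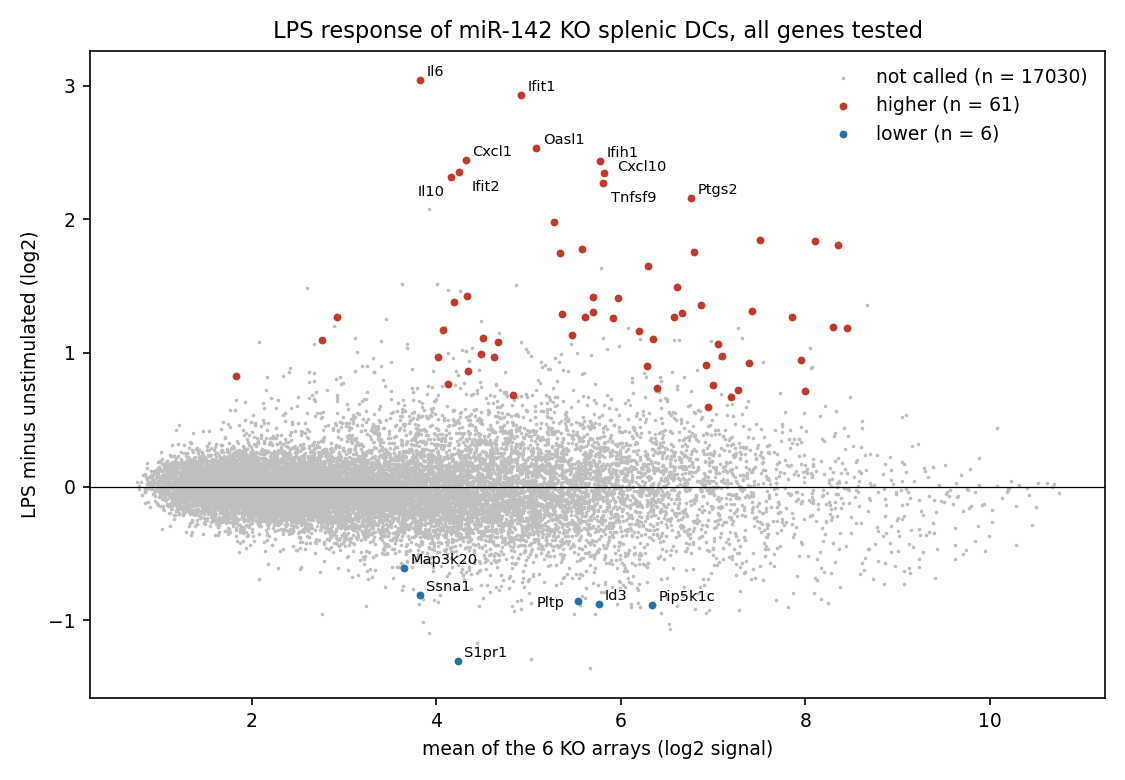
Log2 difference between the mean of the 3 LPS arrays and the mean of the 3 unstimulated arrays in KO DCs (vertical axis) against the mean log2 signal of the 6 KO arrays (horizontal axis), 1 point per gene. The 61 genes that passed with higher signal are red, the 6 that passed with lower signal are blue, and Il6 (3.04) lies highest.

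Promoters of 5 rising genes are printed below as examples, and each of the 5 holds a match, which many rising genes do not. Of the 61 rising genes 49 had a promoter in the RefSeq table (GRCm38.p6), taken as the 250 bases before a start site, and 13605 of all 17097 genes did. The motifs were searched one by one on both strands, so that matches could overlap. The consensus site of NF-kB, the kappa B motif, was found in 14 of the 49 (28.6%), against 722 of the 13605 (5.31%). The AP-1 motif TGANTCA was in 8 (16.3% against 6.84%), the interferon-stimulated response element GAAANNGAAA in 3 (6.12% against 3.09%) and the cAMP response element TGACGTCA in 3 (6.12% against 2.52%). Of the 6 falling genes 4 had a promoter, and none of the 4 motifs was in them. A match describes letters only, binding was not measured, and no match says nothing about a factor. The 5 sequences below run 5′ to 3′ on the strand of the gene up to the base before its start, with every match to the 4 motifs in capitals.
Il6 chr5:30012864-30013113, plus strand: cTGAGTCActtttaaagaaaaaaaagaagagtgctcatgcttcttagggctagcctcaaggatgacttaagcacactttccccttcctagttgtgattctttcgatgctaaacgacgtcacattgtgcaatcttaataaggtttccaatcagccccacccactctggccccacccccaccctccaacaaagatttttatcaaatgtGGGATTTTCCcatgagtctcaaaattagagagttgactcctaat
Cxcl10 chr5:92348890-92349139, minus strand: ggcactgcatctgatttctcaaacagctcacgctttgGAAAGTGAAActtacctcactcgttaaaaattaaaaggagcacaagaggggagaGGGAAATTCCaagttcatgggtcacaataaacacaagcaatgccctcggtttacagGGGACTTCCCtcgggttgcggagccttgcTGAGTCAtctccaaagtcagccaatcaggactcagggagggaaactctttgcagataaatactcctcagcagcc
Ifit1 chr19:34640639-34640888, plus strand: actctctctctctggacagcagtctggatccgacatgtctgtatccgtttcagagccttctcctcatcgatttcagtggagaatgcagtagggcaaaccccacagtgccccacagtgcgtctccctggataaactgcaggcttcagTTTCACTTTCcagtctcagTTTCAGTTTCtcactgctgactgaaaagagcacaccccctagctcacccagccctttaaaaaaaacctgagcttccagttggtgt
Nfkbia chr12:55492648-55492897, minus strand: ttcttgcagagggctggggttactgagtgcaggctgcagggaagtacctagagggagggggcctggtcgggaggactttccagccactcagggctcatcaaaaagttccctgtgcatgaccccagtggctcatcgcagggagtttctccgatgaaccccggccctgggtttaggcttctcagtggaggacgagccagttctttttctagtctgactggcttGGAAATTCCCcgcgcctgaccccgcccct
Tnfaip3 chr10:19015411-19015660, minus strand: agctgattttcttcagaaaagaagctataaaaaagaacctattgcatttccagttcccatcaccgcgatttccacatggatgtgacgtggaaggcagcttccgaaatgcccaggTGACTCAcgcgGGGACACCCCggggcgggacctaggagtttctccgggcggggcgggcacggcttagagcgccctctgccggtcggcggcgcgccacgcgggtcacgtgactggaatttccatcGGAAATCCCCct
The Il6 promoter holds 1 kappa B match, 44 to 35 bases before the start, and an AP-1 match at its far end. Cxcl10 holds 2 kappa B matches, 1 response element for interferon and 1 AP-1 match, while Ifit1 holds 2 interferon elements and no kappa B match. Nfkbia and Tnfaip3, genes of proteins that switch NF-kB off, hold 1 and 2 kappa B matches. For Tnf, Il10, Il12b, Nfkbiz, Ptgs2, Tnfsf9, Ifih1 and Ifit2 no match to the 4 motifs was found or no promoter was available. Oasl1 holds a kappa B match and no interferon element.

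Genes of the LPS receptor and its adaptors did not pass in KO cells, with 0 of 17 measured members called by limma. Their median log2 difference was 0.35. At an unadjusted limma p under 0.05, 6 were higher, against 4.21% of all genes, and 1 was lower, against 5.26%. Tlr4, the receptor itself, read 4.08, 4.37 and 4.13 on unstimulated arrays 1 to 3 and 3.88, 3.38 and 3.73 after LPS, a difference of −0.53 ± 0.18 (limma adjusted p = 0.343). Its LPS arrays all lay below the unstimulated ones, yet the difference did not pass. Cd14, which hands LPS to the receptor and is named after its values were seen, differed by 0.53 ± 0.37 (adjusted p = 0.703). Tlr1, a partner of TLR2 in sensing bacterial lipoproteins, differed by 1.10 ± 0.23 (adjusted p = 0.0873, and 0.0117 with array numbers as a block). The adaptor gene Traf6, named after its values were seen, passed without LPS array 2 (0.54, adjusted p = 0.036) and not over all arrays (0.35 ± 0.14, adjusted p = 0.45).

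Genes of the NF-kB pathway were higher after LPS, several of them inhibitors of that pathway. Of 17 measured genes of NF-kB subunits and feedback 6 were higher and none was lower, against 0.357% of all genes, and the list median was 0.57. Nfkbiz, which encodes an atypical nuclear I-kappa-B needed for a second wave of genes such as Il6, read 7.52, 7.57 and 7.25 unstimulated and 9.16, 9.61 and 8.99 after LPS. The lowest LPS array thus lay above the highest unstimulated array by more than a log2 unit, and the difference was 1.81 ± 0.15 (adjusted p = 0.000673). Tnfaip3, whose product A20 edits ubiquitin chains to end the signal, read 7.75, 7.51 and 7.82 unstimulated and 9.02, 8.63 and 9.02 after LPS (1.19 ± 0.12, adjusted p = 0.000854). LPS array 2 was the lowest of its group for Tnfaip3 and still above every unstimulated array. Nfkbia, the classical inhibitor I-kappa-B-alpha, rose by 0.92 ± 0.17 (adjusted p = 0.0441), and by 1.16 without LPS array 2 (adjusted p = 0.000845), but its call was lost without any 1 of the other 11 arrays. Zc3h12a, an RNase that degrades cytokine transcripts, rose by 0.97 ± 0.14 (adjusted p = 0.00862), and the adhesion molecule gene Icam1 by 0.95 ± 0.13 (adjusted p = 0.00556). Tnip1, a partner of A20, rose by 0.59 ± 0.11 (adjusted p = 0.0424), a call that was lost without LPS array 2 (adjusted p = 0.0777). The ubiquitin ligase gene Birc3 differed by 0.61 ± 0.12 (adjusted p = 0.0561, 0.0338 with the block and 0.0727 with the block and no LPS array 2). Outside the fixed list, 3 further regulators of the pathway were higher and are named after their values were seen. Nfkbid, another nuclear I-kappa-B, rose by 1.27 ± 0.16 (adjusted p = 0.00442), the signalling adaptor gene Tank by 0.76 ± 0.11 (adjusted p = 0.00862) and the ubiquitin ligase gene Peli1 by 0.98 ± 0.13 (adjusted p = 0.00442).

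Inflammatory cytokine genes were higher in 7 of 19 measured members and lower in none, against 0.357% and 0.0351% of all genes, with a median of 0.49 (0.68 without LPS array 2). Il6, the acute-phase and B cell growth cytokine and a reported miR-142 target, had the largest difference of all genes tested. It read 2.56, 2.17 and 2.18 unstimulated and 5.31, 6.17 and 4.56 after LPS, a rise of 3.04 ± 0.31 (adjusted p = 0.000854). The unstimulated values lay under the median gene (3.14), and the LPS arrays spread widely, with array 2 highest and array 3 lowest. Without that array the rise was 2.63 (adjusted p = 0.000162). Il10, which dampens inflammation, read 3.46, 2.43 and 3.10 unstimulated and 5.85, 4.83 and 5.26 after LPS (2.32 ± 0.30, adjusted p = 0.00442). Il12b, the p40 chain of the T cell instructing cytokines IL-12 and IL-23, read 5.56, 5.30 and 5.54 and 7.27, 6.75 and 7.32, a rise of 1.65 ± 0.16 (adjusted p = 0.000673). Its groups were tight and far apart, and array 2 was the lowest of the LPS group. Tnf, the gene of tumour necrosis factor, read 5.96, 6.13 and 5.67 and 7.79, 7.57 and 7.66 (1.75 ± 0.17, adjusted p = 0.000775). Il1a, an alarm cytokine of the interleukin 1 family, read 3.99, 4.62 and 4.26 and 6.06, 6.91 and 5.83 (1.98 ± 0.27, adjusted p = 0.00556). Array 2 was again highest, and the rise without it was 1.66 (adjusted p = 0.00392). Lif rose by 0.76 ± 0.13 (adjusted p = 0.0258) on its brightest probe set, while 1 of its other probe sets had a difference of −0.15. The seventh member is Tnfsf9, which is described with the costimulatory genes. Members that did not pass include Il1b, the gene of interleukin 1 beta. It differed by 0.30 ± 0.35 (adjusted p = 0.846), by 0.72 without LPS array 2 (adjusted p = 0.545) and by 0.87 with the block and no LPS array 2, where it passed (adjusted p = 0.00283). Il23a, the chain specific to IL-23, differed by 1.20 ± 0.39 (adjusted p = 0.316, and 0.0304 with the block). The Il23a difference was 0.68 without LPS array 2 (adjusted p = 0.524) and 0.81 with the block and no LPS array 2 (adjusted p = 0.016). Ebi3, a chain of IL-27, differed by 0.93 ± 0.22 (adjusted p = 0.128, and 0.00357 with the block).

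**Figure D2:**
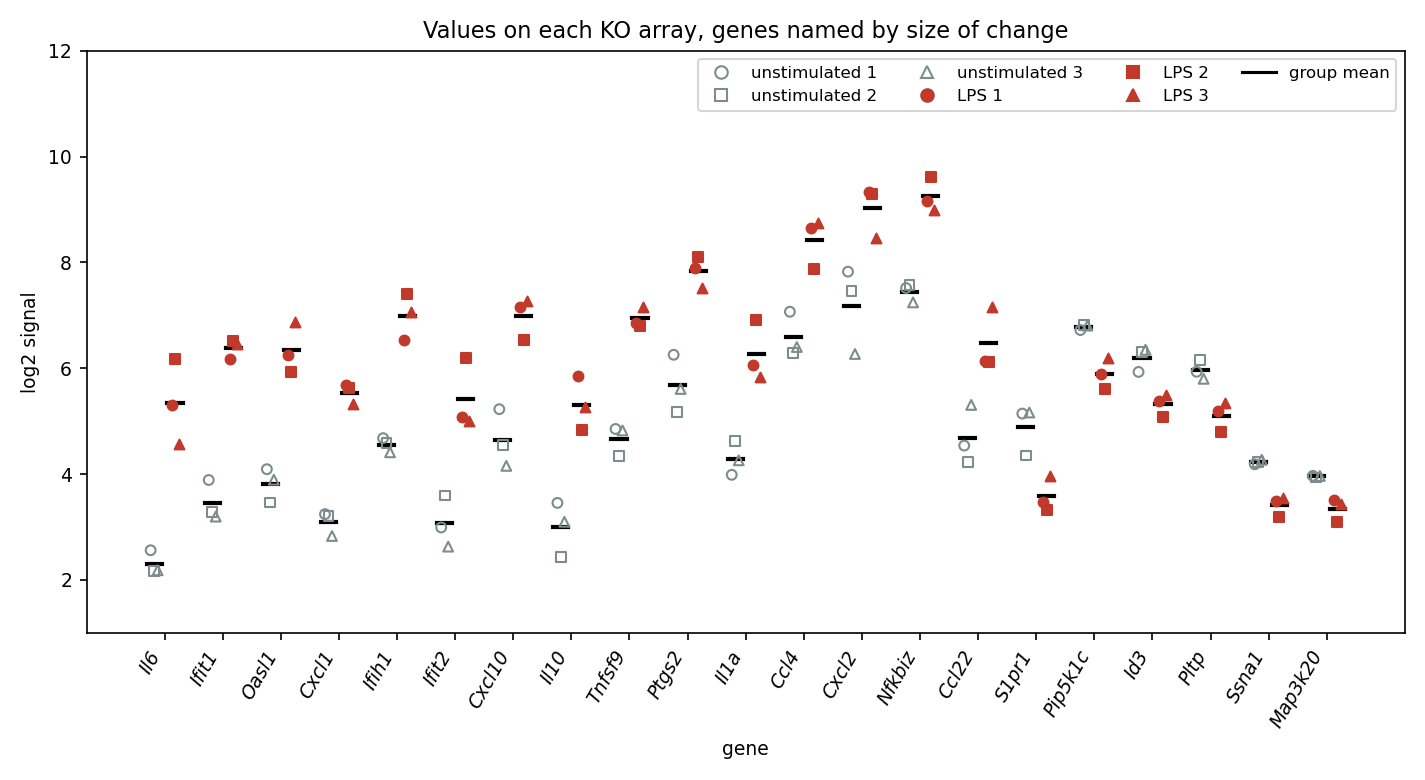
Log2 signal on each of the 6 KO arrays for the 15 largest rises and the 6 falls that passed (horizontal axis, genes), with unstimulated arrays in open grey and LPS arrays in filled red, the array number given by the marker and the group mean by a bar. In every gene shown the 3 arrays of one group lie above the 3 of the other, and the squares of array 2 are the lowest LPS value in all 6 falling genes.

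Chemokine genes, whose products draw leukocytes, rose in 5 of 17 measured members (0.357% of all genes) and fell in none, with a median of 0.57 (0.73 without LPS array 2). Cxcl1, a neutrophil attractant, read 3.24, 3.21 and 2.83 unstimulated and 5.68, 5.62 and 5.32 after LPS, a rise of 2.44 ± 0.29 (adjusted p = 0.00253). Both groups were tight, and number 3 was the lowest in each. Cxcl10, an interferon-induced attractant of T and natural killer (NK) cells, read 5.23, 4.55 and 4.16 and 7.16, 6.54 and 7.28 (2.35 ± 0.28, adjusted p = 0.00225). Ccl4, a macrophage inflammatory protein, read 7.07, 6.29 and 6.40 and 8.66, 7.88 and 8.75 (1.84 ± 0.27, adjusted p = 0.00942). Cxcl2, a second neutrophil attractant, read 7.83, 7.45 and 6.27 and 9.33, 9.29 and 8.46, and each group had number 3 as its lowest array. Its rise of 1.84 ± 0.35 passed narrowly (adjusted p = 0.049), was lost without LPS array 2 (adjusted p = 0.0936) and held with array numbers as a block (adjusted p = 0.000289). Ccl22, which attracts regulatory T cells, read 4.54, 4.23 and 5.31 and 6.14, 6.12 and 7.15, with number 3 highest in both groups (1.78 ± 0.33, adjusted p = 0.0402, and 0.000201 with the block). Ccl7 (1.51 ± 0.33, adjusted p = 0.0907) and Ccl3 (1.36 ± 0.28, adjusted p = 0.0777) did not pass over all arrays. Both passed without LPS array 2 (Ccl7 adjusted p = 0.0472, Ccl3 adjusted p = 0.0139) and with the block (adjusted p = 0.00247 and 0.00493). Ccl9, named after its values were seen, differed by 1.00 ± 0.23 (adjusted p = 0.119, and 0.00211 with the block).

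Of 29 measured genes of type I interferon and its antiviral response 5 were higher (0.357% of all genes) and none was lower, while the list median was only 0.17 (0.09 without LPS array 2). The rises were large but few. Ifit1, which binds foreign RNA caps, read 3.89, 3.28 and 3.20 unstimulated and 6.18, 6.51 and 6.46 after LPS, a rise of 2.93 ± 0.36 (adjusted p = 0.00253). Its LPS arrays lay close together, and array 1 was the highest of the unstimulated ones. Oasl1, a member of the oligoadenylate synthetase family that lacks the enzyme activity, read 4.09, 3.46 and 3.89 and 6.25, 5.93 and 6.87 (2.53 ± 0.34, adjusted p = 0.00462). Ifih1, the RNA sensor MDA5, read 4.68, 4.58 and 4.41 and 6.53, 7.40 and 7.06 (2.44 ± 0.29, adjusted p = 0.00225). Ifit2, of the same family as Ifit1, read 2.99, 3.59 and 2.63 and 5.08, 6.20 and 5.01 (2.35 ± 0.36, adjusted p = 0.0129), with array 2 highest in both groups. Ifnb1, interferon beta itself, read 2.55, 2.16 and 2.16 and 3.79, 3.76 and 3.13, a rise of 1.27 ± 0.23 (adjusted p = 0.0402) that did not pass without LPS array 2 (adjusted p = 0.0757). Gbp2, an interferon-induced GTPase, differed by 0.96 ± 0.48 (adjusted p = 0.575) but by 0.22 without LPS array 2. Rsad2, which encodes the antiviral enzyme viperin, differed by 0.93 ± 0.24 (adjusted p = 0.189, and 0.0118 with the block). Oas3, a synthetase of the signal that activates RNase L, went the other way at −0.90 ± 0.19 (adjusted p = 0.0772, 0.0262 with the block and 0.0558 with the block and no LPS array 2). Helz2, a helicase gene named after its values were seen, rose by 1.29 ± 0.20 (adjusted p = 0.0136).

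Costimulatory genes, which DCs use to activate T cells, were higher in 2 of 15 measured members and lower in none (median 0.25, and 0.60 without LPS array 2). Over all genes 0.357% were higher and 0.0351% lower. Tnfsf9, the ligand of 4-1BB, read 4.85, 4.34 and 4.83 unstimulated and 6.86, 6.80 and 7.17 after LPS, a rise of 2.27 ± 0.21 (adjusted p = 0.000673). Cd40, the receptor through which T cells license DCs, read 6.93, 6.26 and 7.10 and 8.17, 7.85 and 8.21 (1.32 ± 0.21, adjusted p = 0.0148). For both genes LPS array 2 was the lowest of its group and unstimulated array 2 the lowest of its own. Tnfsf4, the ligand of OX40, differed by 1.52 ± 0.30 (adjusted p = 0.0561) and passed without LPS array 2 (1.85, adjusted p = 0.00475) and with the block (adjusted p = 0.00114). Cd86, the main ligand of CD28, read 7.43, 7.20 and 7.71 unstimulated and 7.85, 7.13 and 7.91 after LPS and did not pass (0.18 ± 0.19, adjusted p = 0.819, and 0.43 with adjusted p = 0.383 without LPS array 2). Cd200 differed by 1.03 ± 0.25 (adjusted p = 0.147, and 0.0128 with the block).

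Among 13 measured genes of migration and retention 1 was higher and 1 lower, against 0.357% and 0.0351% of all genes. The list median of −0.44 was −0.23 without LPS array 2. Marcksl1, an actin-binding substrate of protein kinase C, read 8.06, 7.80 and 7.70 unstimulated and 8.98, 9.23 and 8.92 after LPS (1.19 ± 0.17, adjusted p = 0.00862). S1pr1, the receptor through which lymphocytes and DCs follow sphingosine 1-phosphate, read 5.14, 4.35 and 5.16 and 3.47, 3.31 and 3.96, a fall of −1.31 ± 0.25 (adjusted p = 0.0476). Without LPS array 2 the S1pr1 difference was −1.17 and did not pass (adjusted p = 0.0951), while it passed with the block (adjusted p = 0.00175). The actin bundling gene Fscn1, a marker of mature DCs, differed by 0.89 ± 0.31 (adjusted p = 0.352). The migratory receptor gene Gpr183, named after its values were seen, differed by 0.55 ± 0.34 (adjusted p = 0.653) and passed without LPS array 2 (1.05, adjusted p = 0.0385). Ccr6, a chemokine receptor named after its values were seen, differed by −0.63 ± 0.33 (adjusted p = 0.591, 0.0363 with the block and 0.0772 with the block and no LPS array 2) and by −0.23 without LPS array 2. Ccr7, the receptor that guides mature DCs to lymph nodes, was not analysed here.

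Of the effector genes 1 of 19 measured members passed, as higher, against 0.357% of all genes (median 0.22). Ptgs2, the inducible cyclooxygenase that makes prostaglandin precursors, read 6.25, 5.18 and 5.61 unstimulated and 7.90, 8.09 and 7.52 after LPS, a rise of 2.16 ± 0.22 (adjusted p = 0.000854). Nos2, the inducible nitric oxide synthase, differed by 0.11 ± 0.12 (adjusted p = 0.843, and 0.24 without LPS array 2). The acute-phase gene Saa3 read 3.04, 3.51 and 2.07 and 4.96, 6.82 and 3.09, so that its groups overlapped, and its difference of 2.08 ± 0.69 did not pass (adjusted p = 0.321, and 0.0124 with the block). Without LPS array 2 it was 1.15. The collagenase gene Mmp13 (1.49 ± 0.45, adjusted p = 0.273, and 0.84 without LPS array 2) did not pass, except with the block and no LPS array 2 (adjusted p = 0.016). Sod2, a mitochondrial antioxidant enzyme, differed by 1.11 ± 0.33 (adjusted p = 0.267, and 0.0108 with the block). The Sod2 difference was 0.72 without LPS array 2 (adjusted p = 0.484) and 0.84 with the block and no LPS array 2 (adjusted p = 0.00554). Gch1, which makes a cofactor of nitric oxide synthase and is named after its values were seen, passed without LPS array 2 (0.70, adjusted p = 0.0287) and not over all arrays (0.50 ± 0.16, adjusted p = 0.312).

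Immediate early and MAP kinase feedback genes, which respond within minutes to hours, had a median of 0.25 and 1 of 29 measured members higher. Over all genes 0.357% were higher, a share that also stands beside the survival and hypoxia counts below. Myc, a growth-promoting transcription factor, read 6.42, 5.88 and 6.27 unstimulated and 7.76, 6.96 and 7.92 after LPS (1.36 ± 0.23, adjusted p = 0.0243), with array 2 lowest in both groups. Gadd45a, a stress gene, differed by 1.00 ± 0.54 (adjusted p = 0.601, and 0.55 without LPS array 2). Nr4a1, an orphan nuclear receptor named after its values were seen, differed by 0.47 ± 0.15 (adjusted p = 0.294) and passed without LPS array 2 (0.66, adjusted p = 0.0177). So did Maff (0.73, adjusted p = 0.0481, against 0.60 ± 0.15 over all arrays) and Gadd45b (0.83, adjusted p = 0.036, against 0.11 ± 0.43), also named after their values were seen. Cflar, which blocks death receptor signals, was the 1 higher gene among 18 survival and apoptosis genes (0.91 ± 0.15, adjusted p = 0.0154), and Casp4, the caspase that senses LPS in the cytosol, named after its values were seen, passed with the block (0.70 ± 0.16, adjusted p = 0.113, and 0.00976 with the block). None of 19 SOCS and cytokine feedback genes passed (median −0.03). At an unadjusted limma p under 0.05, 4 were higher and 2 lower, against 4.21% and 5.26% of all genes. Socs3, an inhibitor of IL-6 signalling, differed by 0.46 ± 0.28 (adjusted p = 0.66) and by 0.85 without LPS array 2. Socs2, of the same family and named after its values were seen, differed by 0.69 ± 0.25 (adjusted p = 0.382, 0.0263 with the block and 0.0626 with the block and no LPS array 2). Adm, the hypoxia-responsive gene of adrenomedullin, read 2.37, 2.15 and 2.12 and 3.54, 2.98 and 3.39, the 1 higher member among 18 hypoxia genes (1.09 ± 0.16, adjusted p = 0.00758).

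Of the rising genes 32 belonged to no fixed list. Nfkbid, Tank, Peli1 and Helz2 among them are described above, and the others are described here by role, chosen after their values were seen. Nlrp3, the sensor of the inflammasome that matures interleukin 1 beta, read 5.09, 5.04 and 5.00 unstimulated and 6.41, 6.55 and 6.08 after LPS (1.30 ± 0.12, adjusted p = 0.000673). Its unstimulated arrays were nearly equal. Cd69, an early activation antigen that holds cells in tissue, read 4.65, 4.18 and 4.55 and 6.49, 6.10 and 6.04 (1.75 ± 0.23, adjusted p = 0.00442). Pvr, the ligand of the T and NK cell receptors DNAM-1 and TIGIT, rose by 1.27 ± 0.14 (adjusted p = 0.00144), and Procr, the protein C receptor, by 1.50 ± 0.25 (adjusted p = 0.0249). Cited2, a transcriptional cofactor that competes with HIF for p300, read 4.95, 4.92 and 4.85 and 6.04, 5.98 and 6.08, with both groups tight (1.13 ± 0.12, adjusted p = 0.00125). Signalling genes included Rapgef2, an exchange factor for RAP proteins (1.10 ± 0.13, adjusted p = 0.00253), Pde4b, which breaks down cyclic AMP (1.07 ± 0.15, adjusted p = 0.00854), the kinase gene Plk2 (1.41 ± 0.21, adjusted p = 0.0108) and Cdk5r1, the activator of CDK5 (1.43 ± 0.16, adjusted p = 0.00162). Jdp2, an AP-1 family repressor, rose by 1.27 ± 0.20 (adjusted p = 0.0148), and Zfp36l1, which destabilises transcripts with AU-rich elements, by 0.72 ± 0.14 (adjusted p = 0.049, and 0.06 without LPS array 2). Tnfrsf13c, the receptor of the B cell survival factor BAFF, rose by 0.73 ± 0.14 (adjusted p = 0.0441), while 0 of 10 B cell markers passed. The other rises of this kind were of Ankrd33b, Cdc42ep3, Eef1e1, Ell2, Fam133b, Gem, Gimap9, Mrpl39, Nbn, Nipal1, Osgin2, Ppp2r3c, Rbm48, Sowahc, Tbc1d1 and the host transcript of a microRNA cluster described next. Tbc1d1 (1.38, adjusted p = 0.0352) lost its call without LPS array 2 (1.33, adjusted p = 0.0584). The brightest probe sets of Fam133b and Ppp2r3c rose, while another probe set of each gene had a difference below 0. Other genes had probe sets of unlike size, such as Cdk5r1 (0.0 to 1.43), Pde4b (0.17 to 1.07) and Zfp36l1 (0.17 to 0.72).

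Mir17hg, the host transcript of the miR-17 cluster, read 4.22, 3.75 and 4.41 unstimulated and 5.10, 5.24 and 5.28 after LPS, so that its groups stood apart. It rose by 1.08 ± 0.18 (adjusted p = 0.0248). Its microRNAs promote growth and survival of blood cells, and their main mature strands from RefSeq (chr14, plus strand) are printed with the seed in capitals to show what the transcript carries. Mature microRNAs were not measured.
miR-17-5p: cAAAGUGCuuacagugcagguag
miR-20a-5p: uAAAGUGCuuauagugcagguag
miR-18a-5p: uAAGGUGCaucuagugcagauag
miR-19a-3p: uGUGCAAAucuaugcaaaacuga
miR-19b-3p: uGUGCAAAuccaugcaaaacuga
miR-92a-3p: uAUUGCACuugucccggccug
miR-17-5p and miR-20a-5p share 1 seed, miR-19a-3p and miR-19b-3p share another, and no seed of the cluster equals either seed of miR-142a printed above.

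5 of the 6 falls were smaller than the median rise of 1.27, the exception being S1pr1, and LPS array 2 was the lowest LPS array for all 6. Id3, an inhibitor of E protein transcription factors, read 5.93, 6.31 and 6.35 unstimulated and 5.38, 5.07 and 5.50 after LPS (−0.88 ± 0.15, adjusted p = 0.0258, and 0.0449 without that array). Pip5k1c, a kinase that makes the lipid PIP2, read 6.72, 6.82 and 6.81 and 5.88, 5.61 and 6.19 (−0.89 ± 0.16, adjusted p = 0.0369, and 0.0616 without it). Pltp, the phospholipid transfer protein, read 5.93, 6.15 and 5.80 and 5.18, 4.79 and 5.34 (−0.86 ± 0.15, adjusted p = 0.0265, and 0.0509 with array numbers as a block). Ssna1, a microtubule-binding protein, read 4.19, 4.22 and 4.27 and 3.50, 3.19 and 3.55 (−0.81 ± 0.12, adjusted p = 0.00862), with unstimulated arrays that were nearly equal. Map3k20, a stress-activated kinase, fell by 0.61 ± 0.11 on the log2 scale (adjusted p = 0.0402, and 0.0539 without LPS array 2). 1 of the other 2 probe sets of Map3k20 had a difference of 0.03. With S1pr1, which is described above, Pip5k1c and Map3k20 lost their calls without LPS array 2. Fitted on the 6 KO arrays alone, 0 of the 6 falls passed.

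**Figure D3:**
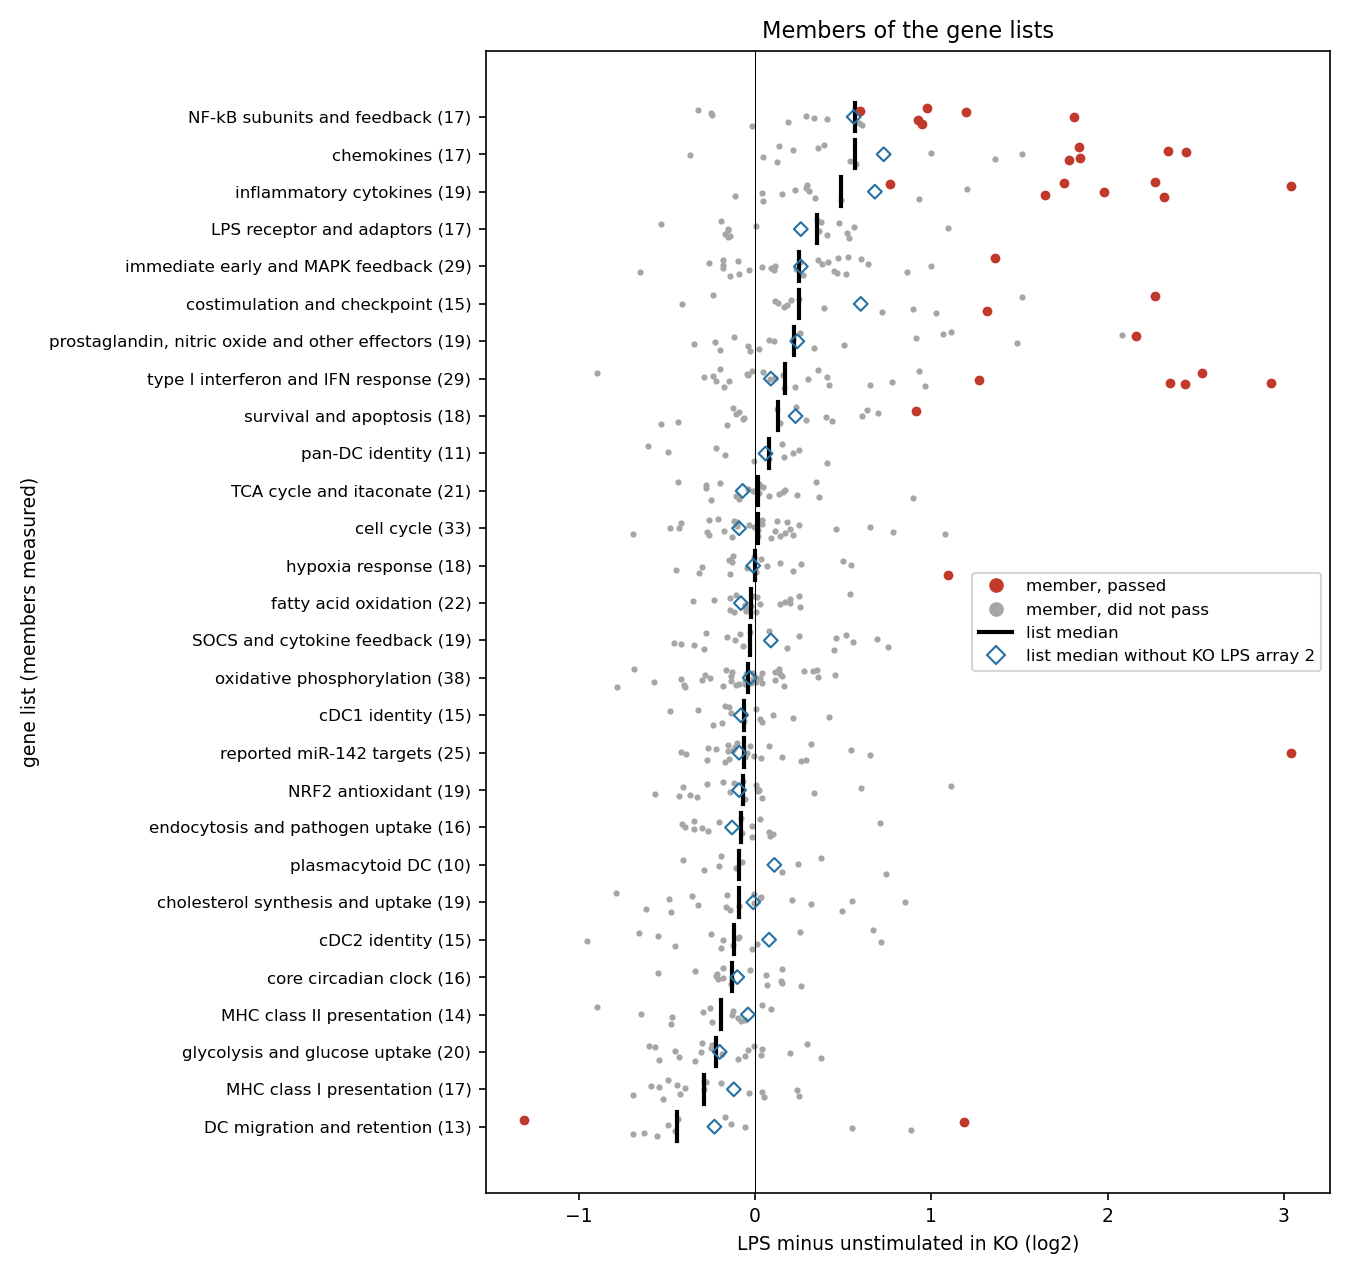
Log2 differences between LPS and unstimulated KO DCs (horizontal axis) for the members of the 28 functional gene lists (vertical axis, members measured in parentheses), red where a member passed at an adjusted p under 0.05. Black bars are list medians, from −0.44 for migration and retention to 0.57 for NF-kB and chemokine genes, and blue diamonds are the medians without LPS array 2, which for MHC class I genes is −0.12 in place of −0.29.

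Metabolic genes showed no member past the threshold. None of 20 measured genes of glycolysis and glucose uptake passed (1 higher and 5 lower at an unadjusted limma p under 0.05), and their median was −0.22 (−0.20 without LPS array 2). At that unadjusted p, 4.21% of all genes were higher and 5.26% lower. Hk2, the inducible hexokinase, read 5.29, 5.43 and 5.35 unstimulated and 5.61, 5.61 and 5.96 after LPS, and although its groups did not overlap the difference of 0.37 ± 0.12 did not pass (adjusted p = 0.313). Slc2a1, the main glucose transporter, read 6.81, 7.20 and 6.72 and 6.71, 7.15 and 6.86, with group means of 6.91 and 6.91 (adjusted p = 0.997, and a difference of −0.12 without LPS array 2). Slc16a3, which exports lactate, differed by −0.60 ± 0.39 (adjusted p = 0.68, and −0.39 without LPS array 2). None of 22 fatty acid oxidation genes passed (median −0.02, with 0 higher and 1 lower at an unadjusted p under 0.05). Cpt1a, which carries fatty acids into mitochondria and is a reported miR-142 target, read 3.92, 4.73 and 3.90 and 3.81, 4.54 and 4.04 (−0.06 ± 0.25, adjusted p = 0.973, and −0.26 without LPS array 2), with groups that overlapped. The largest difference in that list was 0.54 ± 0.27 for Slc25a20, the carnitine carrier (adjusted p = 0.566, and 0.11 without LPS array 2). Acod1, which makes the antimicrobial metabolite itaconate, differed by 0.90 ± 0.49 (adjusted p = 0.608, and 0.0231 with the block) among 21 genes of the citrate cycle, of which 0 passed (median 0.02, with 0 higher and 2 lower at an unadjusted p under 0.05). None of 38 oxidative phosphorylation genes passed (median −0.04, with 1 higher and 1 lower at an unadjusted p under 0.05). Atp5b, a subunit of the ATP synthase, differed by −0.78 over all arrays and by −0.17 without LPS array 2.

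Antigen presentation genes did not pass either, and their values moved with LPS array 2. MHC class II genes (14 measured) had a median of −0.19 over all arrays and −0.04 without that array, and MHC class I genes (17 measured) −0.29 and −0.12. At an unadjusted limma p under 0.05, 2 class II and 7 class I genes were lower, against 5.26% of all genes, and none was higher, against 4.21%. Summed over the members on the linear scale, MHC class I signal ran from 3060 to 3151 on unstimulated arrays and from 1715 to 3014 on LPS arrays, and array 2 held the lowest sum. The same array held the lowest class II sum, 3683 against 5246 to 5673 on unstimulated arrays. H2-D1, a class I heavy chain, differed by −0.69 ± 0.30 (adjusted p = 0.497) and by −0.19 without it. The lysosomal protease gene Lgmn differed by −0.89 ± 0.35 (adjusted p = 0.427) and by −0.40 without it.

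Identity genes of cDC1 (15 measured, median −0.06), cDC2 (15, −0.12), all DCs (11, 0.08) and plasmacytoid DCs (10, −0.09) had no member past the threshold. At an unadjusted limma p under 0.05, 1, 1, 0 and 2 members were higher and 1, 4, 2 and 0 lower. Over all genes 4.21% were higher and 5.26% lower at that unadjusted p. Irf4, a transcription factor of cDC2 cells that activated DCs also use, read 6.45, 6.15 and 6.61 unstimulated and 7.57, 5.97 and 7.81 after LPS. Array 2 was the lowest LPS array at the level of the unstimulated group, and Irf4 passed without it (1.28, adjusted p = 0.00392) but not over all arrays (0.71 ± 0.36, adjusted p = 0.576). Itgam, the integrin chain CD11b, differed by −0.95 ± 0.39 (adjusted p = 0.464). No member passed among pathogen uptake (16 measured), cholesterol (19), NRF2 antioxidant (19) or circadian clock genes (16), with medians from −0.13 to −0.07. At an unadjusted p under 0.05 these lists held 1, 3, 1 and 0 higher and 0, 4, 1 and 1 lower members. Dhcr7, an enzyme of cholesterol synthesis named after its values were seen, differed by −0.62 ± 0.18 (adjusted p = 0.24, and 0.0247 with the block). Cell cycle genes had 0 of 33 members past the threshold (median 0.02, with 1 higher and 3 lower at an unadjusted p under 0.05). The cell cycle inhibitor gene Cdkn1a, named after its values were seen (1.01, adjusted p = 0.00921) and the cyclin gene Ccnd2 (1.23, adjusted p = 0.0441) passed without LPS array 2. E2f7 (means 1.97 and 1.97, adjusted p = 0.997) and E2f8 (means 2.91 and 3.57, adjusted p = 0.694), repressors of the cell cycle and reported miR-142 targets, did not pass, and E2f7 lay under the median gene. Without LPS array 2 their differences were −0.09 and −0.00. Il6 was the 1 higher member among 25 reported miR-142 targets, against 0.357% of all genes, and the median of these targets was −0.06.

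Markers of other cell types did not pass in any list over all arrays, with 0 of 8 T cell, 10 B cell, 6 plasma cell, 13 NK cell, 13 neutrophil, 14 macrophage and monocyte, 7 erythroid and 8 platelet genes called by limma. At an unadjusted p under 0.05 the higher ones were 2 plasma cell and 1 macrophage gene, and the lower ones 1 B cell, 1 plasma cell and 2 macrophage genes. Over all genes 4.21% were higher and 5.26% lower at that unadjusted p. With array numbers as a block, Cxcr2, a neutrophil chemokine receptor, was lower (adjusted p = 0.0362, and 0.0877 with the block and no LPS array 2). Without the block Cxcr2 differed by −0.62 ± 0.64 (adjusted p = 0.814). Spic, a factor of red pulp macrophages, was higher with the block (adjusted p = 0.0124, and 0.0254 with the block and no LPS array 2). Without the block Spic differed by 0.75 ± 0.27 (adjusted p = 0.382). The Cxcr2 difference was −1.09 without LPS array 2. Irf4, also a plasma cell marker, passed without that array. The summed neutrophil signal ran from 2417 to 8059 on unstimulated arrays and from 2288 to 6863 after LPS, so its spread within a group was wider than the gap between groups. The macrophage and monocyte sum ran from 1584 to 2149 and from 1177 to 1652, with array 2 lowest, and the complement gene C1qa differed by −1.03 ± 0.47 (adjusted p = 0.523) and by −0.40 without that array. On unstimulated arrays the sum of the 11 genes of all DCs ran from 911 to 971. Sums of neutrophil, macrophage and monocyte, NK cell (1213 to 1432) and erythroid genes (1234 to 2265) lay above it. Those of T cell (117 to 133), B cell (418 to 662), plasma cell (212 to 247) and platelet genes (178 to 499) lay below it. The lists differ in length, so the sums do not give shares of cells. The part of the other cell types in the results was not tested.

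The WT arrays, whose levels do not enter the KO differences but share their estimate of spread, gave the same directions. All 61 rising genes were above 0 in WT, where 50.8% of all genes were, and 56 had an unadjusted limma p under 0.05 with a rise, against 3.17% of all genes. The WT groups did not overlap for 58 of the 61 (6.78% of all genes) and for 4 of the 6 falls (5.07%). In WT cells 20 genes were higher (0.117%) and 0 lower at a limma adjusted p under 0.05. Without KO LPS array 2, 61 WT genes were higher (0.357%) and 6 lower (0.0351%), and with array numbers as a block 73 were higher (0.427%) and 2 lower (0.0117%). Of the WT calls 16 (80.0%) were also called in KO, which is 26.2% of the 61. The 4 genes called in WT and not in KO, not shown to differ between them, were Gypc, Arhgap22, Bcl2l1 and Gm9706, with WT rises of 0.91, 0.92, 0.77 and 1.64 and KO differences of 0.50, 0.65, 0.29 and 1.07. The median of the 61 was 1.27 in KO and 0.87 in WT, a gap that the choice of the genes by their KO values helps to set.

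No gene passed the limma test of the difference itself, the KO response minus the WT response. The lowest adjusted p among the 67 KO calls was 0.969, and 638 of all genes (3.73%) had an unadjusted limma p under 0.05. The KO and WT values are given side by side for the largest gaps and for leading genes. Il1a rose by 1.98 ± 0.27 in KO and differed by 0.54 ± 0.27 in WT (difference 1.44 ± 0.38, adjusted p = 0.969). For Cxcl1 the values were 2.44 ± 0.29 and 1.10 ± 0.29 (difference 1.35 ± 0.42, adjusted p = 0.969). Cxcl1 was the 1 gene that passed when LPS array 2 was left out and array numbers were a block (0.00585% of all genes, difference 1.36, adjusted p = 0.0294). In that fit unstimulated KO array 2 had no partner, so the KO response rests on the other array numbers. With both KO arrays of number 2 left out and no block, 0 genes passed the difference test. Cdk5r1, on its brightest probe set, had 1.43 ± 0.16 in KO and 0.48 ± 0.16 in WT (difference 0.95 ± 0.23, adjusted p = 0.969). Ptgs2 had 2.16 ± 0.22 and 1.22 ± 0.22 (difference 0.94 ± 0.31, adjusted p = 0.969). Ifnb1 had the smaller value in KO, 1.27 ± 0.23 against 1.84 ± 0.23 (difference −0.57 ± 0.33, adjusted p = 0.969). Il6 (3.04 ± 0.31 and 2.33 ± 0.31), Il12b (1.65 ± 0.16 and 1.91 ± 0.16) and Ifit1 (2.93 ± 0.36 and 2.62 ± 0.36) had difference tests with adjusted p = 0.969, 0.969 and 0.969. For Id3 the fall in KO (−0.88 ± 0.15) stood beside −0.82 ± 0.15 in WT, while Ssna1 had −0.81 ± 0.12 and −0.27 ± 0.12 (difference −0.55 ± 0.17, adjusted p = 0.969).

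**Figure D4:**
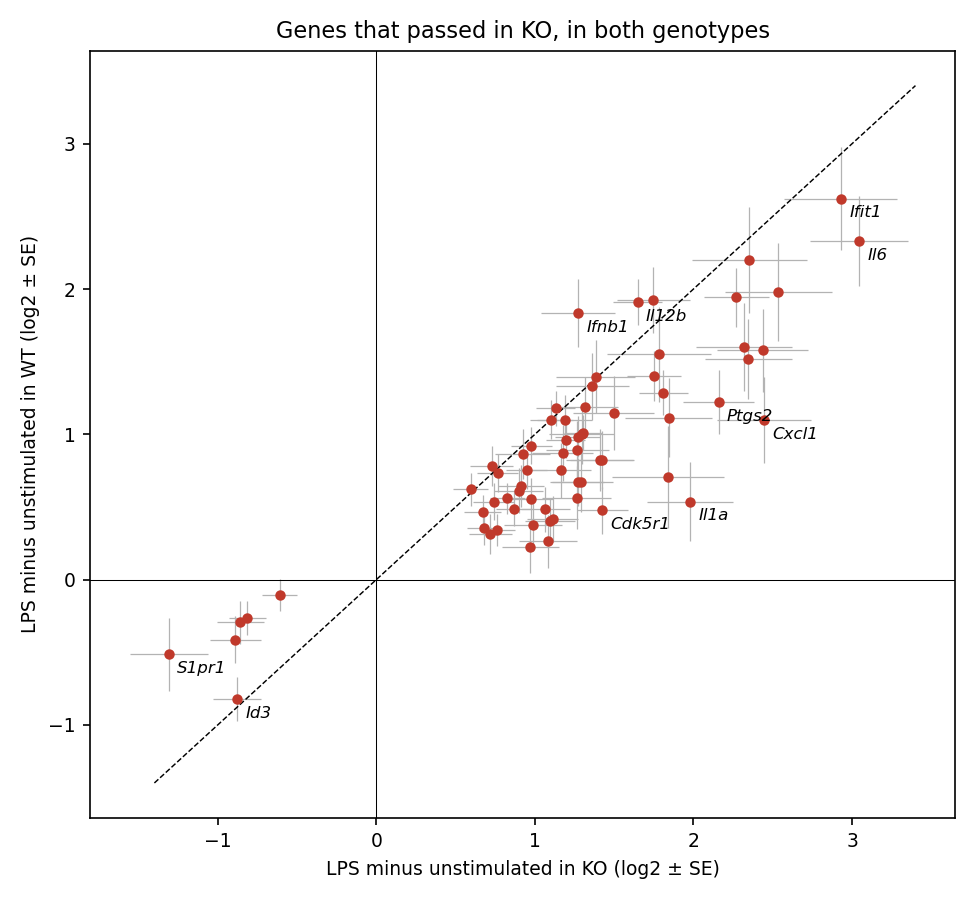
Log2 difference between LPS and unstimulated DCs in KO (horizontal axis) and in WT (vertical axis) with moderated SEs, for the 67 genes that passed in KO; the dashed line marks equal values. All 61 rises in KO lie above 0 in WT and all 6 falls below 0, and the points of Il1a and Cxcl1 lie farthest to the right of the line.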

How the data were processed

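Deposited values of 12 Affymetrix arrays were used, 6 of them KO. The submitters' processing notes name RMA, and the values as deposited are in log2 units per probe set, with array medians from 2.65 to 2.72. Per the labels' protocols RNA went through a single amplification with oligo(dT) and random primers. RMA makes overall distributions alike, so a shift shared by most genes would not be seen, and the number of arrays limits the precision. Probe sets with 1 symbol (28898 of 45141) were kept, symbols were updated by Entrez number (28689 matched RefSeq), and each of the resulting 17097 genes is represented by its brightest probe set on average. Dim genes were kept.

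A model with 4 group means was fitted with limma 3.58.1 in R 4.3.3 (lmFit, eBayes, total degrees of freedom 12.3), and calls were made at a p under 0.05 after Benjamini-Hochberg adjustment over all genes. In simulated data for the KO contrast over 17097 genes, 49% of genes shifted by 0.5, 88% of those shifted by 1 and 100% of those shifted by 2 were recovered (200 genes each), with 35 false calls. All these genes were shifted at once, which loosens the adjusted threshold, and the noise was independent between arrays. The shares therefore check the code and are not the power of the real contrast. In the real contrast 82 genes rose by 1 or more, and 43 of them passed. The labels give each array its own mouse number and do not say that equal numbers share a mouse. Residual correlations of same-numbered KO arrays were 0.305, 0.284 and 0.440, against −0.336 to −0.071 for different numbers. Residuals were taken from group means, so positive values for equal numbers make the others negative in part by construction. Whether equal numbers share a mouse stays unknown, and numbers were treated as pairs only in alternatives (fixed block, or random block with statmod 1.5.0, consensus correlation 0.174). P-values otherwise measure the spread between arrays labelled as biological replicates. Alternatives were other fits, left-out arrays, normalizations, filters, probe-set rules and array weights.

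Genes were named by size (up to 15 rises and 15 falls that passed, with groups apart, without predicted models, small RNAs or genes in which both group means were below 3.14, the median gene), by list (up to 4 members that passed and 3 that did not) or from a set of genes named in all cases. Members and the 36 lists (582 of 662 genes measured) were chosen with earlier results of these data known. Genes with no single-symbol probe set, such as Ccr7 and Isg15, were not analysed here.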

Additional observations from a re-analysis of the deposited data

Results flagged for a closer look

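Probe sets outside the gene table carried an LPS signal as well. When all 45037 probe sets other than controls were tested in the same model, 42 of the 16139 without a single symbol passed in KO cells at a limma adjusted p under 0.05, 39 higher and 3 lower after LPS, the largest at 2.47 log2 units. Their genes are not named here. Groups of 3 arrays are too small for a test of single outlying arrays.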

How the results depend on the processing

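The 67 genes called in KO cells kept their direction in each of the 26 alternatives that tested them (filters on dim genes left out Nipal1 in 2 and Adm in 1), while the counts moved. Leaving out any 1 of the 12 arrays gave 35 to 91 higher and 1 to 18 lower genes in KO, 4 to 67 calls in WT and 0 to 0 calls for the difference of responses. The lowest counts came without unstimulated KO array 2 (35 higher) and without unstimulated WT array 2 (1 lower), and the highest without KO LPS array 2 (91 higher) and without KO LPS array 3 (18 lower). The replicate block as a fixed term gave 123 higher and 25 lower genes in KO and 75 calls in WT. As a random term it gave 109, 26 and 48. The fixed term with KO LPS array 2 left out gave 155, 27 and 219, beside 1 call for the difference. The 6 KO arrays alone gave 13 higher and 0 lower genes, and 30 and 0 with the block, with fewer degrees of freedom. Array weights gave 95, 10 and 54, and a second quantile normalization gave 3 lower genes. WT calls numbered 70 with both KO arrays of number 2 left out, 34 among genes at or above the median gene and 31 with the mean of a gene's probe sets. Among genes not called, leaving out 1 array moved Cpt1a between −0.26 and 0.22, E2f7 between −0.10 and 0.11, E2f8 between −0.00 and 1.04, Il1b between −0.15 and 0.72, Cxcr2 between −1.36 and 0.06, Gadd45b between −0.27 and 0.83 and Slc2a1 between −0.12 and 0.14, with changes of sign. With both KO arrays of number 2 left out, or with the block and no LPS array 2, Cpt1a (0.01), E2f7 (0.02) and Slc2a1 (0.02) changed sign, as did E2f7 after quantile normalization (0.00) and after median centring (0.03) and Slc2a1 after centring (0.03). The cause of these changes was not tested. Signals near background, such as unstimulated Il6 and E2f7, limit what fold changes can be measured.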

Other observations

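Treating same-numbered arrays as pairs added 63 higher and 20 lower genes to the calls in KO cells, and the genes named here were chosen from them after their values were seen. Clec4e, the lectin Mincle that senses mycobacterial lipids, differed by 1.19 ± 0.33 (limma adjusted p = 0.003 with array numbers as a block, and 0.212 without). Ccrl2, a decoy-like chemokine receptor, differed by 1.10 ± 0.35 (adjusted p = 0.00465 with the block, and 0.308 without). Serpinb2, an inhibitor of plasminogen activators, differed by 1.06 ± 0.36 (adjusted p = 0.00304 and 0.329). The costimulatory ligand gene Cd70 (0.90 ± 0.23, adjusted p = 0.00482 and 0.174) and Cd274, the gene of the checkpoint ligand PD-L1 (0.72 ± 0.20, adjusted p = 0.0363 and 0.24, and 0.0865 with the block and no LPS array 2), had LPS arrays above all unstimulated ones. Ifit3, of the same antiviral family as Ifit1, differed as well (0.78 ± 0.22, adjusted p = 0.0166 and 0.225). Among lower genes, Txnip, which limits glucose uptake, read 7.28, 7.32 and 6.61 unstimulated and 6.22, 6.07 and 5.72 after LPS (−1.06 ± 0.28, adjusted p = 0.00289 and 0.202). Map3k14, the kinase NIK of the alternative NF-kB pathway, differed by −0.87 ± 0.23 (adjusted p = 0.00746 and 0.195).

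Leaving out LPS array 2 added 35 higher and 4 lower genes that had not passed over all arrays. Cxcr5, the receptor that guides cells to B cell follicles, read 3.30, 2.62 and 3.53 unstimulated and 4.62, 3.36 and 4.68 after LPS, and passed at 1.50 without array 2 (limma adjusted p = 0.00961). Ppp1r15a, which reverses the stress block on translation, passed at 1.09 (adjusted p = 0.00173). Csf2rb, the shared receptor chain of GM-CSF, IL-3 and IL-5, was lower at −0.81 (adjusted p = 0.00524), and Vhl, which marks HIF for degradation, at −0.86 (adjusted p = 0.0148).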
